A study of Homo sapiens with 6 samples.

Results

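ERBB2 and 8 of its neighbours on the long arm of human chromosome 17 (band 17q12) were followed in SKOV3, an established human ovarian carcinoma line in which ERBB2 is known to be amplified. The 9 genes were taken by symbol from tables of 58735 genes, in which each symbol occurred once: ERBB2, GRB7, STARD3, PGAP3, MIEN1, TCAP, PNMT, PPP1R1B and IKZF3. The cells had received a small interfering RNA against HJURP (siHJURP), the chaperone that places the centromeric histone CENPA, or a negative control small interfering RNA (NC), and RNA was taken 24 h later. Each group had 3 libraries of this 1 line, and the labels do not tie a library to a culture of its own. The p-values therefore measure spread among libraries, and that spread may be technical. DNA copy number was not measured here.

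ERBB2 encodes HER2, a receptor tyrosine kinase of the epidermal growth factor receptor family that has no known ligand of its own and signals by pairing with other members of the family. An amplicon is a stretch of chromosome present in extra copies, and the genes that share it with ERBB2 in breast and other carcinomas are often expressed at high levels along with it. Some neighbours lie outside the extra copies in a given tumour, or are silent in the tissue, so gain of a gene and its expression need not go together.

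Reads assigned to genes numbered 17116487 to 17625638 per NC library and 17524772 to 18027065 per siHJURP library. Levels are the authors' deposited FPKM, which divide a gene's fragments by its length and by a size of the library. That size was 0.985 to 0.989 times the read total in NC and 1.02 to 1.03 times in siHJURP. Compared with scaling by the read total, this lowers siHJURP levels against NC. Means are given with their SD over the 3 libraries of a group. HJURP itself stood at 29.4 ± 0.51 FPKM in the NC libraries against 8.65 ± 0.010 after its siRNA, 70.6% lower. The epithelial keratins KRT8 and KRT18 and the transcription factor PAX8 were detected at 182 ± 3.6, 88.3 ± 2.3 and 60.4 ± 2.2 FPKM in NC, while EPCAM, WT1, MUC16 and CDH1, of the same list of 11 carcinoma markers, had means under 1 FPKM in both groups. Of the 7 tested members of that list, 5 fell in siHJURP and 0 rose, where 20.3% of all tested genes fell and 17.6% rose. Markers of other cell types were near 0: the summed level of 8 lymphocyte markers was 0.259 to 0.588 FPKM in NC and 0.147 to 0.381 in siHJURP, that of 8 striated muscle markers 0.423 to 0.696 and 0.418 to 0.624, and that of 7 fibroblast and endothelial markers 0.412 to 0.874 and 0.465 to 0.689. MS4A1, CD3E, CD2, MYH1, MYH2 and MYH7 were listed at 0 in all 6 libraries. The siHJURP libraries were unlike each other in interferon response: the median of 6 interferon response genes lay 2.09, 0.27 and 2.48 above the NC mean on the log2(FPKM + 1) scale in replicates 1, 2 and 3. Results below are therefore also given without replicates 1 and 3, which leaves a lone siHJURP library that is assumed to vary like NC.

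The 9 genes spanned a wide range of levels in NC, although they lie next to each other. ERBB2 (ENSG00000141736, chromosome 17, 39687914 to 39730426 in hg38, plus strand) had the highest level, 264.4 ± 9.7 FPKM, and ranked 71 of 13365 tested genes. MIEN1 (ENSG00000141741, 39728496 to 39730787, minus strand), a small membrane-anchored protein tied to cell migration, came next with 174 ± 4.8 FPKM and rank 136. STARD3 (39637065 to 39663484, plus strand), a cholesterol-binding protein of late endosomes, had 81.0 ± 2.3 FPKM and rank 418.

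PPP1R1B (39626740 to 39636626, plus strand), which encodes the phosphatase inhibitor DARPP-32, had 33.7 ± 1.0 FPKM. PGAP3 (39671122 to 39696797, minus strand), which remodels the lipid of GPI-anchored proteins, had 27.7 ± 1.9 FPKM. TCAP (39664187 to 39666555, plus strand), the sarcomere protein telethonin, had 4.87 ± 0.31 FPKM. GRB7 (39737927 to 39747291, plus strand), an adaptor that binds phosphorylated HER2, had 2.29 ± 0.46 FPKM, and ERBB2 was 115-fold higher per length although GRB7 starts 7.50 kb beyond its end. In the order of NC levels, the 3 libraries of each gene lay above the 3 libraries of the next gene in every step. The order also depends on the length used, which counts every annotated exonic base of a gene. Other lengths were not tested.

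PNMT (39667981 to 39670475, plus strand), the last enzyme of adrenaline synthesis, had 0.88 ± 0.37 FPKM, and IKZF3 (39757715 to 39864188, minus strand), the lymphoid transcription factor Aiolos, had 0.062 ± 0.0095. PNMT rested on 16 to 33 reads per library and IKZF3 on 6 to 12, so only large differences between the groups could have been detected for them at this depth. Together the 9 genes took 0.370% to 0.387% of the assigned reads in an NC library and 0.466% to 0.526% in a siHJURP library. ERBB2 alone took 0.259% to 0.279% and 0.339% to 0.392%.

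**Figure D1:**
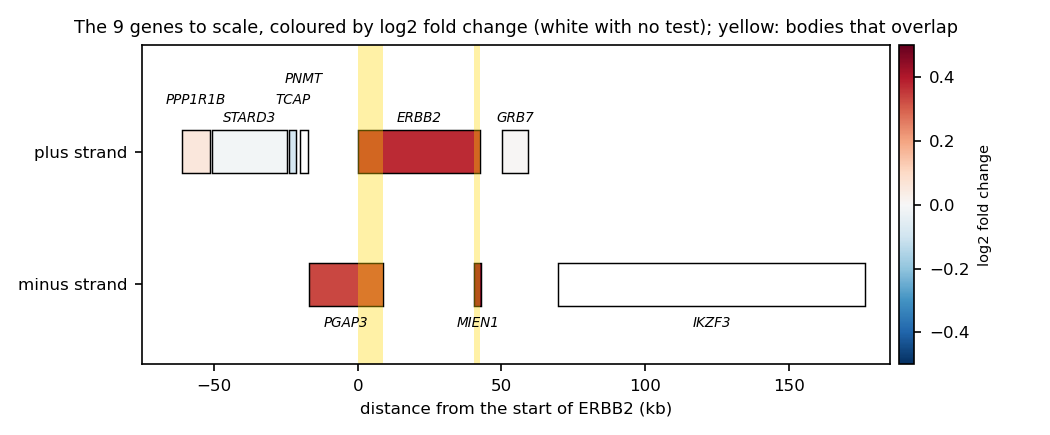
Gene bodies of the 9 genes drawn to scale by strand, with distance from the start of ERBB2 in kb on the x axis and the log2 fold change of siHJURP against NC as colour. PGAP3, ERBB2 and MIEN1 are the darkest red at 0.33, 0.37 and 0.44, and the other tested genes are close to white. Bodies span all annotated transcripts, and those of PGAP3 and MIEN1 overlap that of ERBB2 in the yellow stretches.

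The comparison of siHJURP with NC asked whether the neighbours moved with ERBB2. ERBB2, MIEN1 and PGAP3 rose, by 29.7%, 36.1% and 26.9%, while STARD3, PPP1R1B, TCAP and GRB7 did not pass the test. The fold changes are differences of log2(FPKM + 1), which understate the change of low genes, and the test is limma's, with Benjamini-Hochberg adjustment over all 13365 genes with a mean of at least 1 FPKM. In this comparison 37.9% of all tested genes passed at 0.05, 17.6% higher and 20.3% lower (lower genes were 53.5% of the calls, and 40.4% after rescaling to TPM), and the median log2 fold change of all tested genes was -0.0057. Of the 9 members, 7 passed the filter on low values, and 3 of these rose and 0 fell.

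ERBB2 had 272.9, 253.9 and 266.5 FPKM in NC replicates 1, 2 and 3, and 336.9, 321.6 and 370.0 FPKM in siHJURP replicates 1, 2 and 3. Every siHJURP library lay above every NC library, as in 52.2% of tested genes when either direction is counted, and replicate 3 was the highest. The mean rose by 29.7% (log2 fold change 0.37, SE 0.059, limma adjusted p = 0.00299). These values rested on 45612 to 48220 reads per NC library and 61169 to 68751 per siHJURP library.

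MIEN1 had 175, 178 and 168 FPKM in NC and 233, 229 and 247 FPKM in siHJURP, and again the groups did not overlap. It rose by 36.1% (log2 fold change 0.44, SE 0.042, limma adjusted p = 0.00038). PGAP3 had 27.2, 29.9 and 26.2 FPKM in NC and 36.0, 33.8 and 35.8 FPKM in siHJURP, and its groups were likewise apart. It rose by 26.9% (log2 fold change 0.33, SE 0.056, limma adjusted p = 0.0036).

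STARD3 had 81.5, 83.0 and 78.5 FPKM in NC and 80.1, 79.4 and 81.4 FPKM in siHJURP, so that the siHJURP values lay inside the NC range. Its log2 fold change was -0.013 (95% interval -0.095 to 0.070, limma adjusted p = 0.804), and the sign turned with TPM, quantile and total read scaling. PPP1R1B had 33.7, 34.7 and 32.6 FPKM in NC and 33.9, 34.4 and 36.8 FPKM in siHJURP, with siHJURP replicate 3 the highest of the 6. Its log2 fold change was 0.055 (95% interval -0.050 to 0.16, limma adjusted p = 0.37).

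TCAP had 4.76, 5.22 and 4.64 FPKM in NC and 4.73, 4.55 and 4.29 FPKM in siHJURP, on 164 to 193 reads per library, and the groups overlapped. Its log2 fold change was -0.089 (95% interval -0.23 to 0.052, limma adjusted p = 0.281). GRB7 had 2.08, 2.83 and 1.98 FPKM in NC and 2.54, 2.17 and 2.16 FPKM in siHJURP, on 120 to 177 reads. NC replicate 2 was the highest, and the log2 fold change was 0.0061 (95% interval -0.26 to 0.27, limma adjusted p = 0.971), a sign that turned with quantile scaling and without single libraries.

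PNMT had 17, 33 and 16 reads in NC and 17, 18 and 32 in siHJURP, with 1 high library in each group. IKZF3 had 12, 9 and 11 reads in NC and 6, 7 and 10 in siHJURP, and the ranges overlapped. With no filter on low values their limma adjusted p-values were 0.973 and 0.576. By exact two-sided permutation tests over the 6 libraries, ERBB2, MIEN1 and PGAP3 each had p = 0.1, the smallest that 3 against 3 allows, and 0.3 after adjustment over the 9 members. Without siHJURP replicates 1 and 3, MIEN1 still passed (log2 0.40, limma adjusted p = 0.0219), whereas ERBB2 (log2 0.28, limma adjusted p = 0.056) and PGAP3 (log2 0.28, limma adjusted p = 0.104) did not. In siHJURP replicate 2, the siHJURP library with the lowest interferon response, all 3 genes were above each NC library but lowest among the siHJURP libraries. ERBB2 and MIEN1 increased from siHJURP replicate 2 to 1 to 3, the order of the interferon medians. PGAP3 did not follow that order, with 33.8, 36.0 and 35.8 FPKM in siHJURP replicates 2, 1 and 3. The part of the interferon response in the size of these changes was not tested.

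**Figure D2:**
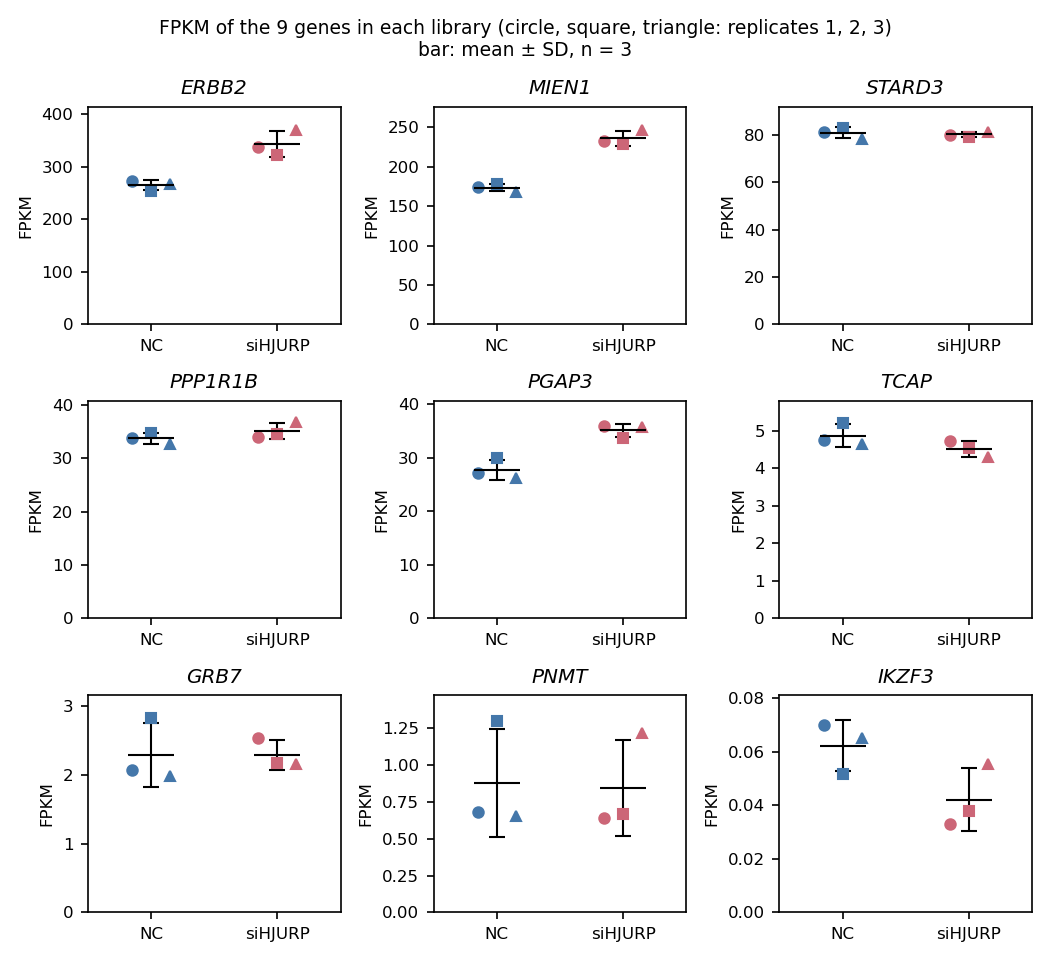
FPKM of the 9 genes (y axis, from 0, a scale for each gene) in the NC and siHJURP libraries, with replicates 1 to 3 as circle, square and triangle and the mean ± SD as bars. The siHJURP points of ERBB2, MIEN1 and PGAP3 lie above all NC points, and those of the other 6 genes overlap with NC.

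A gene that passes and one that does not need not differ, so the change of each neighbour was compared with that of ERBB2 directly. For this the log2(FPKM + 1) of ERBB2 in a library was subtracted from that of every other tested gene, and the differences were tested between siHJURP and NC with limma over 13364 genes. In this fit 67% of all tested genes passed, 65.4% with a lower change than ERBB2 and 1.56% with a higher one, so a pass is common, and every gene carries the spread of ERBB2 itself. STARD3 changed less than ERBB2 by 0.38 on the log2 scale (difference -0.38, 95% interval -0.58 to -0.19, limma adjusted p = 0.004). TCAP (difference -0.46, 95% interval -0.69 to -0.23, limma adjusted p = 0.0038) and PPP1R1B (difference -0.32, 95% interval -0.50 to -0.13, limma adjusted p = 0.0077) also changed less than ERBB2.

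GRB7 was near the threshold (difference -0.37, 95% interval -0.69 to -0.044, limma adjusted p = 0.0451). It no longer passed when NC replicate 2 was left out (-0.22, limma adjusted p = 0.175), when siHJURP replicate 2 (-0.38, limma adjusted p = 0.0625) or 3 (-0.28, limma adjusted p = 0.149) was, or with pseudocounts of 0.1 and 0.01, a filter at 0.1 FPKM, array weights and voom. The differences of MIEN1 (0.070, 95% interval -0.12 to 0.26, limma adjusted p = 0.483) and PGAP3 (-0.038, 95% interval -0.25 to 0.17, limma adjusted p = 0.732) from ERBB2 did not pass. The intervals do not show that the 3 genes changed alike, since they still hold differences up to those bounds. Without siHJURP replicates 1 and 3 the calls of STARD3 (-0.31, limma adjusted p = 0.0663), TCAP (-0.36, limma adjusted p = 0.0674), PPP1R1B (-0.25, limma adjusted p = 0.105) and GRB7 (-0.33, limma adjusted p = 0.25) were lost.

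Ratios within a library gave the same picture except for GRB7. MIEN1 stood at 0.641, 0.700 and 0.632 times the FPKM of ERBB2 in NC and at 0.691, 0.713 and 0.667 times in siHJURP, and PGAP3 at 0.105 ± 0.011 and 0.103 ± 0.0053 times. The ranges of the groups overlapped for both genes. STARD3 stood at 0.299, 0.327 and 0.295 times ERBB2 in NC and at 0.238, 0.247 and 0.220 times in siHJURP, with no overlap. PPP1R1B went from 0.128 ± 0.0079 to 0.102 ± 0.0041 times and TCAP from 0.0185 ± 0.0018 to 0.0133 ± 0.0014 times, also with no overlap, as in 67.1% of all tested genes. GRB7 had 0.0076, 0.0111 and 0.0074 times in NC and 0.0076, 0.0068 and 0.0058 times in siHJURP, and its ranges overlapped. By exact two-sided permutation tests of the log2(FPKM + 1) differences from ERBB2, STARD3, PPP1R1B, TCAP and GRB7 each had p = 0.1, the smallest possible. PNMT and IKZF3, which rest on few reads, also had 0.1, while MIEN1 had 0.3 and PGAP3 0.8. Adjusted over the 8 neighbours, the 6 at 0.1 had 0.133. For a gene near 0 FPKM such as IKZF3 the difference is almost that of ERBB2 alone, so its p follows from ERBB2. GRB7 was apart on this scale but not in the FPKM ratios, since the added 1 weighs more on a low gene.

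**Figure D3:**
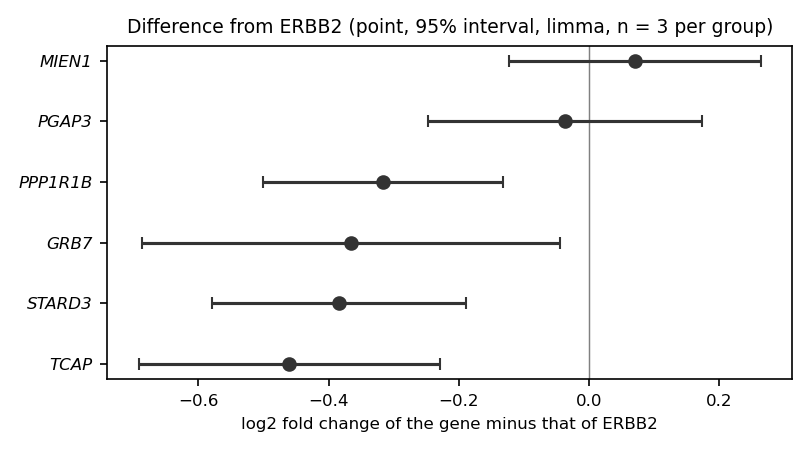
Log2 fold change of each tested neighbour minus that of ERBB2 (x axis), as a point with its limma 95% interval, n = 3 per group. The intervals of MIEN1 and PGAP3 include 0, and those of PPP1R1B, GRB7, STARD3 and TCAP lie below 0.

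The 2 neighbours that rose are the members whose bodies overlap ERBB2 when all GENCODE transcripts are counted. PGAP3 runs against ERBB2 at the start of ERBB2, where the bodies share 8884 bases (39687914 to 39696797). MIEN1 does so at the end of ERBB2, where they share 1931 bases (39728496 to 39730426). The 8884 bases lie between the outermost GENCODE starts of ERBB2 and PGAP3. The RefSeq starts used below are 39688057 for PGAP3 and 39688094 for ERBB2. From these starts the genes run apart and share no base. Which starts SKOV3 uses was not tested, so the overlap of PGAP3 depends on the annotation. In exons, PGAP3 shared 194 bases with ERBB2, 5.29% of its exonic length, and MIEN1 shared 571 bases, 24.9% of its own. Reads on such bases had for nearly all genes not been assigned: among genes with at least 200 exonic bases, 1 of the 495 that lay wholly within exons of opposite-strand genes had any read in the 6 libraries, against 57.9% of the 35249 that shared no exonic base. The counts of MIEN1 therefore come from the other 1721 exonic bases, of which 1360 lie in introns of ERBB2 and 361 outside it. Those of PGAP3 come from 3475 bases, of which 292 lie in introns of ERBB2 and 3183 outside it. Intronic RNA of ERBB2 could not be told apart from MIEN1 RNA on the 1360 bases, and its part in the rise of MIEN1 was not tested. Which ends of ERBB2 transcripts SKOV3 uses was not tested, so the overlap of MIEN1 and its 1360 intronic bases also depend on the annotation.

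ERBB2 also holds the microRNA gene MIR4728, with 6, 6 and 8 reads in the NC libraries against 6, 11 and 6 after siHJURP, which was not called (log2 fold change 0.061, limma adjusted p = 0.845). Its 67 bases lie in an intron of ERBB2, so these reads cannot be told apart from intronic RNA of ERBB2. They do not give the level of the microRNA.

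Promoter sequences, 250 bases before to 50 after the annotated start, were present for 4 of the 9 members in the RefSeq table used (GRCh38.p14). They are shown because PGAP3 and ERBB2, which rose together, have RefSeq starts 37 bases apart on opposite strands. Their windows therefore share 136 bases. MIEN1 is shown as the other gene that rose and STARD3 as a highly expressed neighbour that did not pass. Each is given 5′ to 3′ on its own strand, and capitals mark CGGAAG or its reverse complement CTTCCG, the core that ETS family factors bind.
PGAP3, chr17:39688008-39688307, minus strand: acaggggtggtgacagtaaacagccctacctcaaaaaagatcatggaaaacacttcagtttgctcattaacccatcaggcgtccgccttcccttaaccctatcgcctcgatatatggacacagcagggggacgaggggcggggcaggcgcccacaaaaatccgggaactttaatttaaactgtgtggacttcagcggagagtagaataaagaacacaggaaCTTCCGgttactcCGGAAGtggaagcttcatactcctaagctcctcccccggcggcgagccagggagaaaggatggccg
ERBB2, chr17:39687844-39688143, plus strand: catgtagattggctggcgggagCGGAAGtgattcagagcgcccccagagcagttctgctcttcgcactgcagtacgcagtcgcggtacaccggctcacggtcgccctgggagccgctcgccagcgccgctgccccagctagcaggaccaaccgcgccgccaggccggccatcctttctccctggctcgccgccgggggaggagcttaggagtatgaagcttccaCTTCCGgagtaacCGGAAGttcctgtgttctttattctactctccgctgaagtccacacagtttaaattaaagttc
MIEN1, chr17:39730483-39730782, minus strand: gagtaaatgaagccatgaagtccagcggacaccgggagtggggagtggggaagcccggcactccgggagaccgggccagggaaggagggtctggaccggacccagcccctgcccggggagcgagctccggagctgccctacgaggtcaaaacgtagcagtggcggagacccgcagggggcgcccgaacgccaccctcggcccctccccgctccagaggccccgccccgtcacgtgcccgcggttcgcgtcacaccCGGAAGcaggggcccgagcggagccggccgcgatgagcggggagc
STARD3, chr17:39636894-39637193, plus strand: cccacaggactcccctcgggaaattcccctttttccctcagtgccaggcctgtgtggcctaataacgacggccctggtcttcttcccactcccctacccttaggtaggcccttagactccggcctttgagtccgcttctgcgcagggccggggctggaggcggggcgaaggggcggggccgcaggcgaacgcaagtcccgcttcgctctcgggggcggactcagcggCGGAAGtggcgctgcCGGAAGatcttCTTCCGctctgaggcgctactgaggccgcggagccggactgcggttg

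CGGAAG, on either strand, was found 2 times in the PGAP3 window, 3 times in that of ERBB2, 1 time in that of MIEN1 and 3 times in that of STARD3. The pair of matches of PGAP3 lies in the bases it shares with ERBB2. The motif occurs in 19.5% of all 35116 promoters of the same length, and it was present in the 3 genes that rose and in STARD3, which did not pass. GCCNNNGGC, the palindromic form that AP-2 factors bind, was found 1 time in STARD3 and not in the other 3 windows, against 23.2% of all promoters. CCAAT, on either strand, was found 1 time in ERBB2 and in none of the other 3, against 34.6% of all promoters. ERBB2 has 22 annotated transcripts with 20 different starts in GENCODE 29, from 39687914 to 39728386. The window is set on the start in the RefSeq table, 39688094, and starts outside it were not searched. The motif counts of ERBB2 therefore hold for this window and not for its other promoters. Which start SKOV3 uses was not tested.

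Along chromosome 17, the genes around ERBB2 held more falls than rises. Of 99 other genes within 1000000 bases on either side of ERBB2, 36 were tested, and 4 of these rose (11.1%) and 12 fell (33.3%), with a median log2 fold change of -0.074. On the rest of the chromosome, 18.9% of 799 tested genes rose and 19.9% fell, with a median of -0.0021. The falls lay mostly on one side: 2 genes rose and 4 fell of the 18 tested before ERBB2 (median 0.019), and 2 rose and 8 fell of the 17 tested after it (median -0.18), a difference that was not tested. Within 500000 bases the counts were 3 higher and 4 lower of 20, with a median of 0.037. MIR4728, inside ERBB2, is one of the 36. The tested genes next to the members on either side did not pass: the long non-coding RNA AC087491.1, 65.4 kb before ERBB2, had a log2 fold change of 0.20 (limma adjusted p = 0.544) on 5 to 20 reads, and GSDMB, a gasdermin, 174 kb after it, had -0.049 (limma adjusted p = 0.579).

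The 4 genes that rose, named after their values were seen, were ORMDL3, CDK12, MSL1 and PIP4K2B. ORMDL3, a regulator of sphingolipid synthesis 191 kb after ERBB2, rose from 22.1 ± 0.71 to 26.9 ± 0.94 FPKM (log2 0.27, limma adjusted p = 0.00269). CDK12, a kinase of transcription elongation 123 kb before ERBB2, rose from 15.6 ± 1.4 to 19.0 ± 0.31 FPKM (log2 0.27, limma adjusted p = 0.0166). MSL1 and PIP4K2B had log2 fold changes of 0.23 and 0.14. Their bodies do not overlap ERBB2. In the fit against ERBB2, the differences of ORMDL3 (-0.10, limma adjusted p = 0.283), CDK12 (-0.10, limma adjusted p = 0.301) and MSL1 (-0.14, limma adjusted p = 0.144) did not pass. That of PIP4K2B did (-0.23, limma adjusted p = 0.0278). A change not told apart from that of ERBB2 was thus not particular to MIEN1 and PGAP3.

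The 8 called changes of greatest size in the window were falls. NR1D1, the nuclear receptor REV-ERB alpha of the circadian clock, lies 362 kb after ERBB2 and fell from 37.8 ± 1.2 to 16.9 ± 0.55 FPKM (log2 -1.12, limma adjusted p = 1.57e-05). RARA, a retinoic acid receptor 579 kb after ERBB2, fell from 9.05 ± 0.76 to 4.81 ± 0.047 FPKM (log2 -0.79). WIPF2, an actin regulator, MLLT6, the Mediator subunit MED24, CASC3, of the exon junction complex, and the actin-binding LASP1 fell by 0.41, 0.35, 0.31, 0.29 and 0.28 on the log2 scale. RF00019, a short RNA inside TOP2A, had 15, 12 and 15 reads in NC and 9, 13 and 7 in siHJURP, so the groups overlapped. It fell by 0.56 (limma adjusted p = 0.0459), a call lost with no filter on low values (limma adjusted p = 0.15). Without siHJURP replicates 1 and 3 the window held 0 higher and 7 lower genes, and the counts were 7 higher and 10 lower after rescaling to TPM.

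**Figure D4:**
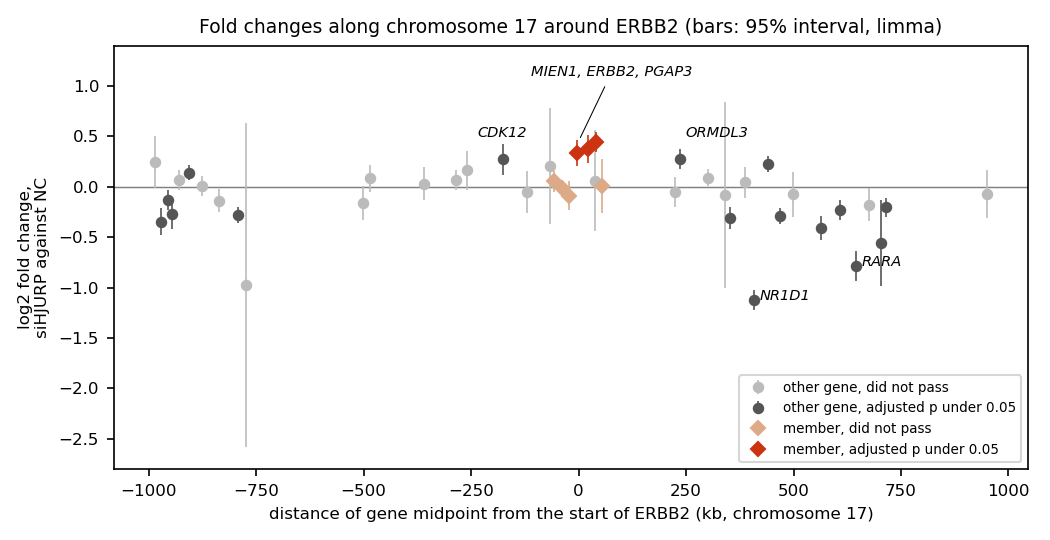
Log2 fold change of siHJURP against NC (y axis, limma 95% interval) for the tested genes by the distance of their midpoint from the start of ERBB2 in kb (x axis). PGAP3, ERBB2 and MIEN1 stand at 0.33 to 0.44 at the centre, while the other members lie near 0 and NR1D1 and RARA lie at -1.12 and -0.79.

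Partners of HER2 included genes that rose and genes that fell. Of 29 receptors, ligands, adaptors and chaperones, 21 were tested, and 6 rose and 9 fell, with a median log2 fold change of -0.11. These are 28.6% higher and 42.9% lower, against 17.6% and 20.3% of all tested genes. EGFR, the partner receptor that binds epidermal growth factor, went from 32.3 ± 2.3 FPKM in NC to 11.6 ± 0.51 in siHJURP, with no overlap, and fell by 1.39 on the log2 scale (limma adjusted p = 2.21e-05). ERBB3 and ERBB4, the other receptors of the family, were at 0.24 ± 0.065 and 0.037 ± 0.014 FPKM in NC and were not tested.

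The phosphoinositide kinase subunit PIK3CB fell by 1.11 on the log2 scale, ERRFI1, a feedback inhibitor of the receptors, by 1.06 and the ligand HBEGF by 0.94. Of the 6 that rose, HSP90AA1, named after its values were seen, is an inducible chaperone of the family that stabilises HER2. It rose from 481 ± 8.4 to 634 ± 37 FPKM (log2 0.40, limma adjusted p = 0.00112), while its paralog HSP90AB1 had a log2 fold change of 0.017 (limma adjusted p = 0.784). Without siHJURP replicates 1 and 3 the count of higher partners was 1.

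Among 20 transcription factors and cofactors known to act on the ERBB2 promoter in other cells, 10 were tested, and 0 rose and 5 fell, with a median log2 fold change of -0.23, against 17.6% higher and 20.3% lower among all tested genes. YBX1, a Y-box protein, fell from 601 ± 29 to 292 ± 11 FPKM (log2 -1.04), and ETS1, an ETS family factor, from 36.6 ± 3.0 to 17.8 ± 0.37 FPKM (limma adjusted p = 5.8e-05). SP1 fell by 0.40 on the log2 scale, and TFAP2A, an AP-2 factor, by 0.34. The acetyltransferase EP300, the last of the 5 and named after its values were seen, fell by 0.40. TFAP2C was at 0.28 ± 0.092 FPKM in NC and was not tested, and TFAP2B and GATA4 were listed at 0 in all 6 libraries. Whether any of the 20 acts at the ERBB2 window shown above was not tested. Without siHJURP replicates 1 and 3, 3 of the factors fell.

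**Figure D5:**
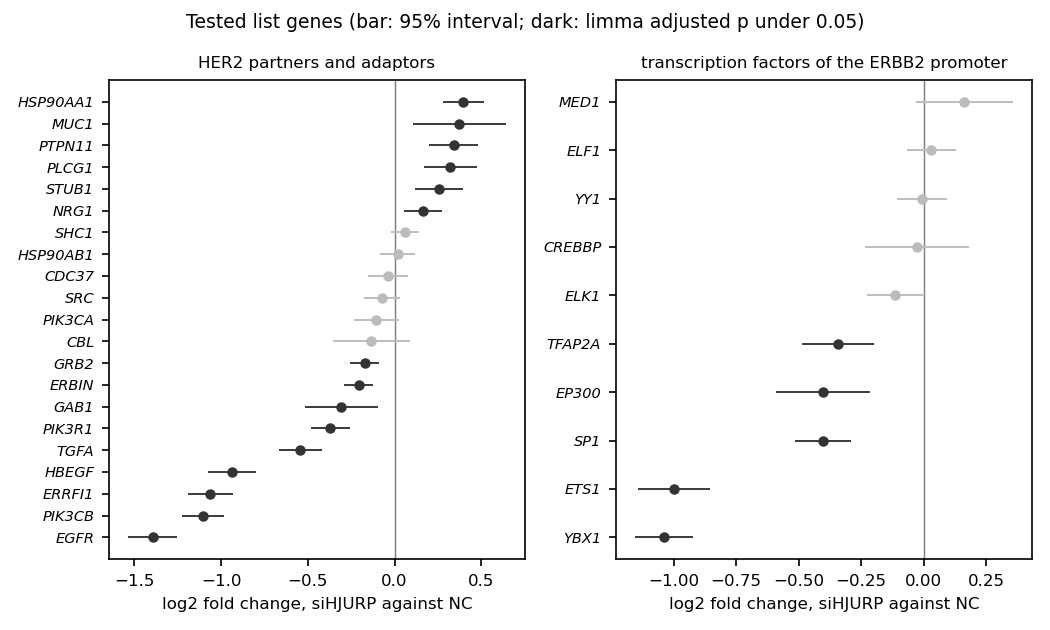
Log2 fold change of siHJURP against NC (x axis, limma 95% interval) for the tested partners of HER2 and the tested factors of the ERBB2 promoter, dark where the limma adjusted p was under 0.05. EGFR is lowest among the partners at -1.39 and HSP90AA1 highest at 0.40, and YBX1 is lowest among the factors at -1.04.

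The genes whose pattern over the 6 libraries was most like that of ERBB2, among those with a mean of at least 10 FPKM, lay on other chromosomes. They were VTI1B, MYH9, MAP4, PLEKHM2 and MAPK14, with Pearson r of log2(FPKM + 1) of 0.996, 0.995, 0.993, 0.993 and 0.992. These correlations describe 6 libraries that differ mainly by group, and VTI1B itself did not pass the test (log2 fold change 0.10, limma adjusted p = 0.0719). Among the members, MIEN1 had r = 0.96 with ERBB2, PGAP3 0.88, PPP1R1B 0.64, GRB7 -0.13, STARD3 -0.18 and TCAP -0.78.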

How the data were processed

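Total RNA of SKOV3 cells was extracted with Trizol and turned into libraries by the NEBNext Ultra kit, per the labels' protocols. The authors deposited 1 table of FPKM per library. HISAT2 2.0.5, featureCounts 1.5.0-p3 and hg38 were used, per the submitters' processing notes, and the strand setting and the scaling of the FPKM are not given in the sources used here. FPKM multiplied by gene length gave whole reads for 100% of values within 0.01 reads. The library size behind the FPKM was 0.985 to 0.989 times the read total in NC and 1.02 to 1.03 times in siHJURP. All 58735 genes matched GENCODE 29 in start, end and exonic length.

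Genes with a mean of at least 1 FPKM were tested on log2(FPKM + 1) by limma 3.58.1 in R 4.3.3 with an intensity trend. The tests were two-sided, with Benjamini-Hochberg adjustment at 0.05. The fits were also run on simulated reads with 1 setting of spread for all genes and no unlike library within a group. The simulation lacks the unlike interferon responses of the siHJURP libraries, so it does not show how the fits behave with them. Exact tests and sequence searches used Python 3.11.15 with scipy 1.17.1. The members, the lists and the rule for named genes were chosen with earlier results of these data known. The rule took the 9 members, the 8 largest called changes and the nearest tested genes in the window, up to 4 called genes per list with EGFR, ERBB3, TFAP2A and TFAP2C, and the 5 genes most correlated with ERBB2. Alternatives were other pseudocounts, filters, scalings and limma settings, voom on the whole reads, protein-coding genes alone, a replicate block and left-out libraries.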

Additional observations from a re-analysis of the deposited data

How the results depend on the processing

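Over 489 values recomputed under the alternatives, 452 kept their direction and side of the threshold (counts: stayed within 1.5 times). The rise of MIEN1 passed in all 22 alternatives. The rises of ERBB2 (log2 0.28 to 0.53) and PGAP3 (0.28 to 0.39) passed in 21 of 22 each, and their leave-one-out values ran from 0.32 to 0.42 and from 0.29 to 0.39. The exception was the setting without siHJURP replicates 1 and 3. It gave 0.28 for ERBB2, 716 higher and 1128 lower genes of all tested, 0 higher and 7 lower in the window, 1 higher member, 1 higher partner of HER2 and 3 lower promoter factors. In it the differences from ERBB2 were -0.31 for STARD3, -0.36 for TCAP, -0.25 for PPP1R1B and -0.33 for GRB7, none of which passed. That setting has 1 siHJURP library, so fewer samples. Counts for the lists and the members under the alternatives were added after seeing the data.

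The difference of GRB7 from ERBB2 lost its call with a pseudocount of 0.1 (-0.36) or 0.01 (-0.36), a filter at 0.1 FPKM (-0.37), array weights (-0.14) and voom (-0.36), and ran from -0.44 to -0.22 with a library left out. The difference of PGAP3 turned to 0.072 with array weights and ran from -0.083 to 0.044 with a library left out, never passing, and that of MIEN1 passed with array weights (0.11). Window counts of higher genes were 7 with TPM and 7 with quantile scaling, and 4 lower genes lay in the window of 500000 bases. Signs that turned without a call were those of STARD3 with TPM (0.047), quantile (0.084) and total read scaling (0.041), of GRB7 with quantile scaling (-0.012) and without siHJURP replicates 1 and 3 (-0.045), and, with a library left out, of STARD3 (-0.035 to 0.0051) and GRB7 (-0.062 to 0.12). The cause of these turns was not tested. Lower genes were 53.5% of the called genes in the deposited FPKM, 40.4% with TPM and 41.5% with total reads (3164 higher and 2144 lower, and 3102 higher and 2198 lower).

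Same-numbered libraries showed no shared deviation, with correlations of their deviations of 0.0025, -0.012 and 0.016. These values do not settle whether the samples were paired by design. With the replicate block 2050 genes were higher and 2477 lower, and it changed no call of a member (ERBB2 log2 0.37, limma adjusted p = 0.00511). Depth limits GRB7, TCAP, PNMT and IKZF3, which rest on few reads.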
